A study of Mus musculus with 6 samples.

Results

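Pramel4, Pramel5, Pramel6 and Pramel7 are 4 mouse genes of the PRAME family, and their RNA was measured in embryonic stem cells with and without Pml. They were chosen by name from the 24421 genes of the deposited table, and the choice was made because Pramel7 was lower without Pml. The differences between the genotypes are therefore given for these 4 genes as a description, with no test. They are grouped here as genes of ground-state pluripotency, yet in these cells only Pramel6 and Pramel7 had more than a few reads: Pramel4 had 0 reads in every library and Pramel5 had 4 at most.

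RNA was sequenced from Pml-/- E14 cells (n = 2 libraries) and from wild-type E14 cells (n = 2 libraries). The cells of all 4 libraries received the herbicide paraquat, which raises superoxide in cells, at 10 µM for 15 h, so no library shows the untreated state. They also shared a serum medium with leukemia inhibitory factor (LIF), CHIR99021, which inhibits GSK3, and PD0325901, which inhibits MEK. The sources used here do not give whether the Pml-/- cells were 1 clone, which part of Pml was disrupted, or whether libraries of a genotype came from separate cultures. The spread that p-values rest on is thus that of 4 libraries and may be technical. A further 2 samples, proximity-labelled PML chromatin from an APEX-PML knockin line, were not analysed here. The libraries held 31384794 to 44130093 reads. Pml RNA stood at 78.7 and 89.7 CPM (counts per 1000000 reads counted in genes) in Pml-/- cells and at 238 and 228 CPM in wild-type cells (limma, adjusted p = 4.43e-10). The 16 naive pluripotency factors that mark embryonic stem cells all had at least 1 CPM on average, and their CPM summed to 7706 to 7878 in Pml-/- cells and 7593 to 7696 in wild-type cells. Fibroblast, primitive endoderm and trophoblast marker lists of 6 genes each summed to 5.82 to 6.47, 6.66 to 9.01 and 83.4 to 85.1 CPM in Pml-/- cells, against 6.84 to 7.58, 7.05 to 7.71 and 62.5 to 68.2 CPM in wild-type cells. No gene of these 3 lists was at 0 in all libraries; 2, 2 and 3 were tested, and 1, the trophoblast gene Tfap2c, rose (70.7 and 71.9 CPM in Pml-/- cells, against 49.8 and 55.2 CPM in wild-type cells; limma, adjusted p = 0.000845). Tfap2c made up most of the trophoblast sum in every library. Of the other tested trophoblast genes, Gata3 had a log2 difference of 0.16 and Eomes of -0.17. Neither passed (limma, adjusted p = 0.545 and 0.503). Cdx2, Elf5 and Krt7 averaged under 1 CPM and were not tested. The part of these markers in the Pramel differences was not tested.

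PRAME family genes encode leucine-rich repeat proteins, exist in many copies in the mouse genome, and are known mainly from the germ line, the early embryo and, for human PRAME, tumours. Human PRAME acts as a substrate receptor of a CUL2 ubiquitin ligase. Mouse PRAMEL7 is found in the inner cell mass, supports naive pluripotency downstream of LIF and STAT3, and directs the DNA methylation cofactor UHRF1 to the proteasome.

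Pramel6 and Pramel7 were both several-fold lower in Pml-/- cells. Pramel6 had 1.76 and 1.85 CPM in the Pml-/- libraries (67 and 81 reads), against 7.74 and 6.73 CPM in the wild-type libraries (243 and 297 reads). The groups did not overlap, and the lower wild-type library was still more than 3 times the higher Pml-/- library. The mean was 1.80 ± 0.068 CPM in Pml-/- cells and 7.24 ± 0.72 CPM in wild-type cells (SD, n = 2 each), a 4.01-fold lower level. Pramel7 had 2.65 and 2.52 CPM in the Pml-/- libraries (101 and 110 reads), against 6.72 and 7.0 CPM in the wild-type libraries (211 and 309 reads). These groups did not overlap either, and replicates of a genotype lay close together. The mean was 2.58 ± 0.093 CPM in Pml-/- cells and 6.86 ± 0.197 CPM in wild-type cells (SD, n = 2 each), a 2.66-fold lower level. Of all tested genes, 25.5% had both Pml-/- libraries below both wild-type libraries, so a lack of overlap alone is common here. In bulk RNA, fewer cells with a transcript and less of it per cell cannot be told apart.

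**Figure D1:**
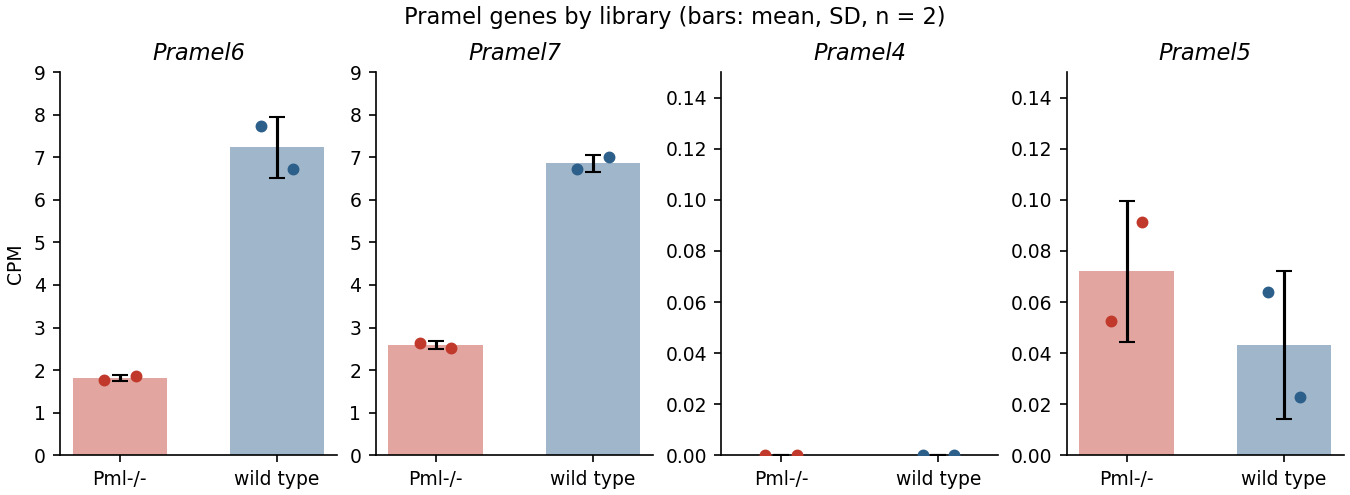
CPM of each Pramel gene in 2 Pml-/- libraries (red, left) and 2 wild-type libraries (blue, right); bars are means, error bars SD, points libraries, and the CPM axis of Pramel4 and Pramel5 is expanded. Pramel6 and Pramel7 lie between 1.76 and 2.65 CPM in Pml-/- cells and between 6.72 and 7.74 CPM in wild-type cells, while Pramel4 is at 0 and Pramel5 under 0.1 CPM in all libraries.

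From the pooled reads, 25.3% of the wild-type level was left for Pramel6 in Pml-/- cells (exact 95% interval from a Clopper-Pearson split of reads, 20.9 to 30.4%). For Pramel7, 37.4% was left (31.7 to 44.0%). The intervals cover counting error only. Within a library the ratio of Pramel7 to Pramel6 CPM, which compares ratios and not the levels of the 2 genes, was 1.51 and 1.36 in Pml-/- cells and 0.868 and 1.04 in wild-type cells, so Pramel6 was lower by the larger factor.

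The fit used log2(CPM + 1), on which changes of low genes come out too small. There the difference (Pml-/- minus wild type) was -1.55 for Pramel6 and -1.13 for Pramel7. Ordered from the most negative difference, Pramel6 was at position 14 and Pramel7 at position 26 of the 12710 genes that averaged 1 CPM or more. The authors' deposited table gives log2 fold changes in the other direction, wild type over knockout, of 1.99 for Pramel6 and 1.41 for Pramel7. Of the 4 Pramel genes 2 passed the filter on low values, and both were past an adjusted p of 0.05 in the limma fit across all genes, where 5.41% of genes passed and 3.45% passed as lower in Pml-/- cells. Since the genes were chosen on this contrast, nothing is read from that count.

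**Figure D2:**
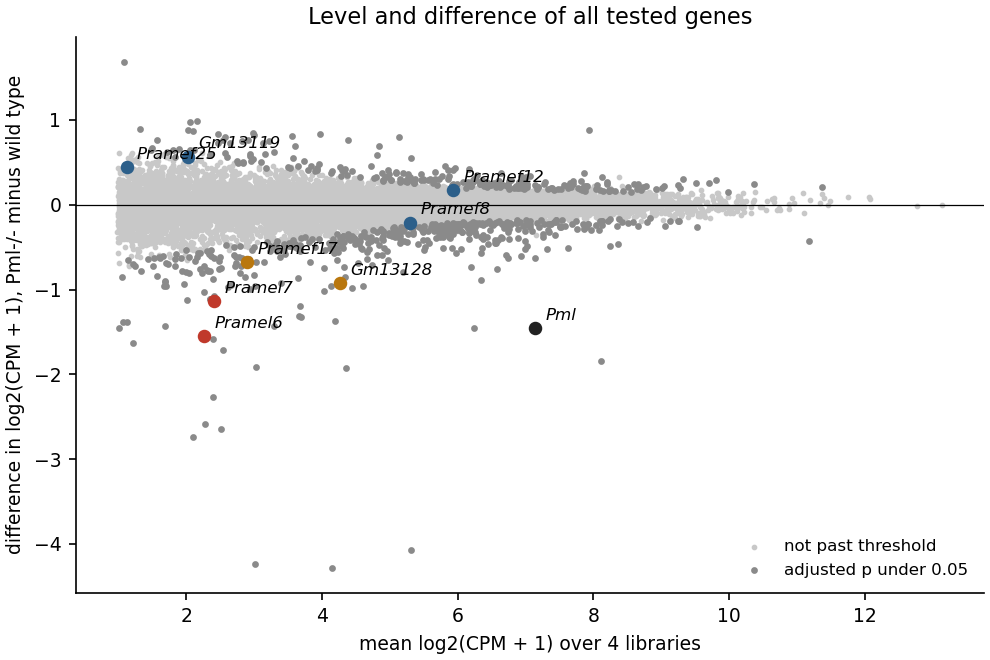
Difference in log2(CPM + 1), Pml-/- minus wild type, against the mean log2(CPM + 1) over 4 libraries for 12710 tested genes; dark grey points passed an adjusted p of 0.05. Pramel6 and Pramel7 (red) lie at -1.55 and -1.13, Pml (black) at -1.46, and of the other PRAME family genes shown Pramef17 and Gm13128 (ochre) are below the cloud and those in blue did not pass the test.

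Pramel4 and Pramel5 were at or near the detection limit. Pramel4 had 0 reads in every library, which allows up to 3 reads, or 0.0786 and 0.0686 CPM in the Pml-/- libraries and 0.0956 and 0.0680 CPM in the wild-type libraries. Pramel5 had 2 and 4 reads in the Pml-/- libraries and 2 and 1 reads in the wild-type libraries, so the groups overlapped. No fold is given for it, and a difference was not detectable at this depth.

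The genes near 0 and the expressed genes sit at different loci. In the RefSeq annotation of GRCm38.p6, the mm10 assembly, Pramel7 spans chr2:87489088-87492418 and Pramel6 chr2:87506565-87510865. They point away from each other, with 14146 bases between them. Of the other 49 genes of the deposited table within 500 kb of Pramel7, 48 were olfactory receptor genes by symbol and the remaining one was Pramel6. Among these olfactory receptors Olfr153, 39.6 kb from Pramel7, had 16 and 37 reads in Pml-/- cells and 29 and 19 reads in wild-type cells, which overlapped. Apart from Pramel6 and Pramel7 themselves, the nearest genes with at least 1 CPM were megabases away. Tnks1bp1, which encodes a tankyrase-binding protein, lay 2.42 Mb before Pramel7, at 108 and 98.8 CPM in Pml-/- cells and 102 CPM in both wild-type libraries (limma, adjusted p = 0.932). Ptprj, a receptor tyrosine phosphatase gene, lay 2.92 Mb after Pramel6, at 19.8 and 24.0 CPM in Pml-/- cells and 26.7 and 27.7 CPM in wild-type cells (limma, adjusted p = 0.0765, and 0.0320 without Pml-/- library 2). Pramel4 (chr4:144059125-144069327) and Pramel5 (chr4:144270633-144280466) lie in a cluster of PRAME family genes on chromosome 4. The whole chromosome holds 24 of the 36 family genes in the table, and not all of these lie in the cluster.

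Of the other PRAME family genes 8 were tested, and 2 passed. RefSeq symbols and synonyms identified 52 family genes, of which 36 were in the table, 32 of them outside the 4 Pramel genes. Of these 32, 14 had no read, 10 had reads but under 1 CPM on average, and 8 were tested, all on chromosome 4. Of the 8 tested, 2 fell, 0 rose and 6 did not pass (limma across all genes, adjusted p under 0.05; background 5.41%), and their median difference was -0.021, against -0.0029 over all tested genes. By edgeR on recovered reads 2 fell and 0 rose. At an unadjusted p under 0.05, 6 of the 8 passed, beside 19.3% of all tested genes. Copies of this family share sequence, and how reads matching several copies were counted is unknown here, so values of single copies are uncertain.

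The 2 that fell were Gm13128, named Pramel30 in RefSeq, and Pramef17, named Pramel14 there. Gm13128 stood at 13.0 and 12.9 CPM in Pml-/- cells, against 25.7 and 25.1 CPM in wild-type cells. This was a 1.97-fold lower level with replicates almost equal (log2 difference -0.93, SE 0.089, limma adjusted p = 1.27e-05). Pramef17 stood at 5.14 and 4.58 CPM in Pml-/- cells, against 7.93 and 8.81 CPM in wild-type cells. It was 1.72-fold lower without overlap (log2 difference -0.68, SE 0.13, limma adjusted p = 0.00553), a call that ended without Pml-/- library 2 (adjusted p = 0.0579). Gm13128 begins 49.8 kb from Pramel5 and Pramef17 ends 64.8 kb before Pramel4, so they flank Pramel4 and Pramel5.

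The family genes with the most reads did not pass the test. Pramef12 was at 63.0 and 64.9 CPM in Pml-/- cells and 56.2 and 57.3 CPM in wild-type cells (limma, adjusted p = 0.114). Pramef8 was at 37.2 and 34.2 CPM in Pml-/- cells and 42.5 and 40.5 CPM in wild-type cells (limma, adjusted p = 0.104). Their groups did not overlap, yet the differences were 0.17 and -0.21 on the log2 scale and neither passed. Over all tested genes, both Pml-/- libraries were above both wild-type libraries in 23.8% and below both in 25.5%. Gm13119 had the largest positive difference of the 8, at 3.77 and 4.14 CPM in Pml-/- cells and 2.80 and 1.95 CPM in wild-type cells (log2 difference 0.56, limma adjusted p = 0.0565). It missed the threshold in the full comparison and passed without wild-type library 1 (adjusted p = 0.00590). Pramef25 (log2 difference 0.44, limma adjusted p = 0.194), Gm12794 (0.29, 0.337) and Pramel1 (-0.32, 0.373) did not pass.

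**Figure D3:**
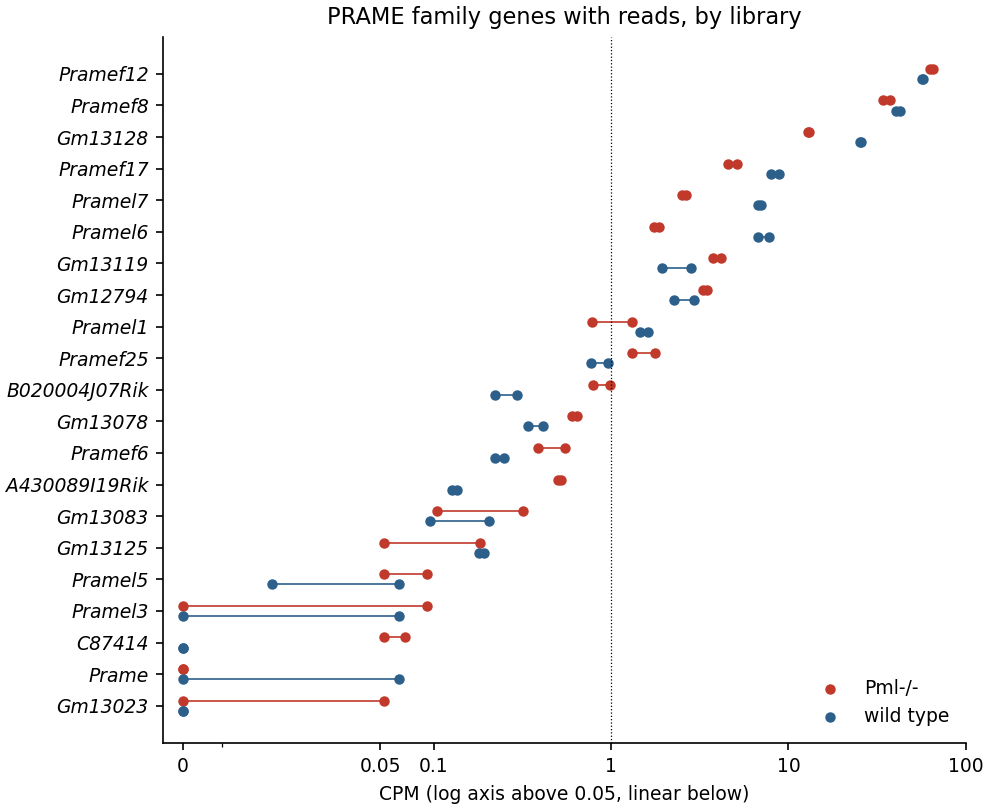
CPM per library of the PRAME family genes with at least 1 read, in Pml-/- (red) and wild-type (blue) libraries, with lines joining the 2 libraries of a genotype; the axis is logarithmic above 0.05 CPM and the dotted line marks 1 CPM. Pramel6 (4.01-fold), Pramel7 (2.66-fold), Gm13128 (1.97-fold) and Pramef17 (1.72-fold) have both Pml-/- libraries left of both wild-type libraries, with clear gaps.

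The promoters of these genes, taken from RefSeq on GRCm38.p6 as 250 bases before to 50 after the annotated start, were set beside the RNA values. The first 3 are shown because they resemble each other and belong to genes with lower RNA in Pml-/- cells, and the Pramel6 promoter because it does not resemble them although its RNA was lower too. Capitals mark bases inside a run of 11 or more identical bases shared between promoters. In Pramel7 the run is shared with Pramel14 (Pramef17) or Pramel30 (Gm13128), and in those 2 promoters with Pramel7. A run may lie at any place in the other promoter, so a capital stretch can join runs from different places. Pramel6 shares no such run with any of the 3.
Pramel7, chr2:87492369-87492668, minus strand: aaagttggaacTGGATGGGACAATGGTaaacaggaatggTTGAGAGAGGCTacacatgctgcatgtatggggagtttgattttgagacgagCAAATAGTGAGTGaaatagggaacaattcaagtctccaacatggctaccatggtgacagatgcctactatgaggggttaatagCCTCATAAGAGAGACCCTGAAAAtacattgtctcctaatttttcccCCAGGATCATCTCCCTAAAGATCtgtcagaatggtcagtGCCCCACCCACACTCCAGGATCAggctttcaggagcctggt
Pramel14 (Pramef17), chr4:143994320-143994619, minus strand: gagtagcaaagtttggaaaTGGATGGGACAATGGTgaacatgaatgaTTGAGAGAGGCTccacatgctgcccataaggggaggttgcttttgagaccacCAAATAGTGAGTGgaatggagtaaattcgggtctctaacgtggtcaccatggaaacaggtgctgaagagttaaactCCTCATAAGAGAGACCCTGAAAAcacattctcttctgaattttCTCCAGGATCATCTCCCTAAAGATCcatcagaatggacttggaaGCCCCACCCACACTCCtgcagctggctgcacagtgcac
Pramel30 (Gm13128), chr4:144329999-144330298, plus strand: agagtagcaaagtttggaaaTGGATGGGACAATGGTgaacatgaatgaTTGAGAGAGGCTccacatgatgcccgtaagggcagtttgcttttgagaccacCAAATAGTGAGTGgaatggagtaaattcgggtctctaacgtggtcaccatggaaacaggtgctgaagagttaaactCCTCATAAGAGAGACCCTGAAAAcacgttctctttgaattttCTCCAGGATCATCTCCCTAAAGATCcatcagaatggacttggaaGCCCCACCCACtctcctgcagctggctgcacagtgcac
Pramel6, chr2:87506315-87506614, plus strand: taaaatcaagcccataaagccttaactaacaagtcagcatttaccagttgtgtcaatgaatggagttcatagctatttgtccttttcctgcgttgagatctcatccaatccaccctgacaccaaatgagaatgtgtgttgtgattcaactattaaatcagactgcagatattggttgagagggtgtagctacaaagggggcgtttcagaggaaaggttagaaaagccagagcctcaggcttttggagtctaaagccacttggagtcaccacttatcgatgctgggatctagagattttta

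In a global alignment, the Pramel7 promoter was identical to that of Pramef17 in 239 of 314 columns (76.1%) and to that of Gm13128 in 235 of 314 columns (74.8%). The promoters of Pramef17 and Gm13128 were 97.3% identical to each other. The third-highest identity with the Pramel7 promoter was 60.8%, for Pramel45, a gene whose RNA was not analysed here. Over the 41 other family promoters in the RefSeq table the median was 50.6% and the lowest 46.8%. Shared words of 11 bases were also counted, with overlapping words counted separately, so a long shared run gives many. Among all 32851 promoters of the RefSeq table, Pramef17 shared 44 and Gm13128 39 such words with Pramel7, and the next shared 7. The comparison was made after the RNA values were seen and is a description.

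The neighbours Pramel6 and Pramel7 did not share such sequence. Their promoters were 47.9% identical, and no promoter of the table shared more than 5 words of 11 bases with Pramel6. Those of Pramel4 and Pramel5, both with 0 or nearly 0 reads, were 83.4% identical. CpG sites, the sites of DNA methylation, numbered 1 in the Pramel7 promoter, 2 in Pramef17, 4 in Gm13128, 3 in Pramel6, 2 in Pramel4 and 0 in Pramel5, against a median of 7 over all promoters. As few as in Pramel7 were found in 14.1% of all promoters, as few as in Pramel6 in 31.4%, and as few as in Gm13128 in 38.0%.

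Both strands were searched for 4 motifs. The STAT motif TTCNNNGAA was in none of the 6 promoters and in 8.30% of all promoters of this length, and TATAAA was in none of the 6 and in 13.6% of all. CACCC, the core of KLF sites, was in 5 of the 6 and in 57.5% of all promoters, and it lay after the start in Pramel7 (from base 14), Pramef17 and Gm13128 (from base 17). In Pramel6 it began 140 and 70 bases, and in Pramel5 44 bases, before the start. CCAAT was in 3 of the 6 and in 37.4% of all, and Pramel6 held it at 146 and 81 bases before its start.

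**Figure D4:**
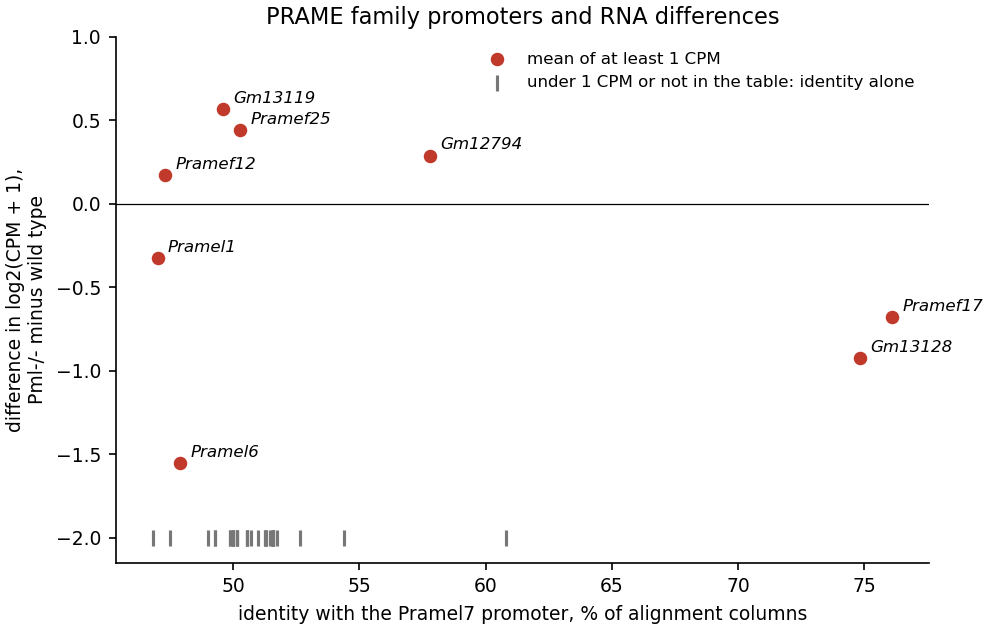
Difference in log2(CPM + 1), Pml-/- minus wild type, against the identity of each family promoter with that of Pramel7; red points are genes averaging 1 CPM or more, grey ticks give the identity of the others without a difference, and Pramef8 has no promoter in the table. Pramef17 and Gm13128 stand apart at 76.1 and 74.8% identity with differences of -0.68 and -0.93, and Pramel6 has the most negative difference at 47.9% identity.

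The 5 genes whose profile over the 4 libraries was closest to that of Pramel7, by Euclidean distance between centred log2(CPM + 1) values, were Txlnb, Smtnl1, Smc1b, Rec114 and Nxf3, at distances of 0.179 to 0.194. Txlnb, the closest, stood at 4.30 and 4.60 CPM in Pml-/- cells and 9.91 and 9.74 CPM in wild-type cells. Smtnl1, the next, stood at 12.1 and 11.2 CPM in Pml-/- cells and 23.4 and 23.6 CPM in wild-type cells. Of those after them, Smc1b encodes a meiotic cohesin subunit, Rec114 a protein required for meiotic double-strand breaks, and Nxf3 an RNA export factor homologue. A shared function of the 5 genes was not tested. Smc1b stood at 14.3 and 14.7 CPM in Pml-/- cells and 30.3 and 28.8 CPM in wild-type cells. Nxf3 stood at 2.78 and 2.54 CPM in Pml-/- cells and 7.26 and 6.16 CPM in wild-type cells. Pramel6 itself came at position 49, at a distance of 0.454. The 4 points behind each distance share the genotype contrast on which Pramel7 was chosen.

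Genes of the pathways in which PRAMEL7 is known to act were set beside it. Pramel7 was chosen because it was lower, so smaller differences in these genes are not read as a result. The counts in the lists that follow stand beside 1.95% of all tested genes called higher and 3.45% called lower. Of 15 tested genes of the LIF receptor and STAT3 pathway, 1 rose and 1 fell (limma, adjusted p under 0.05), with a median log2 difference of 0.0046. Without wild-type library 2, Myc, a transcription factor gene, was called lower too (adjusted p = 0.00278). Pim1, a kinase gene induced by STAT3, fell to 79.8 and 86.5 CPM in Pml-/- cells, against 108 and 114 CPM in wild-type cells (log2 difference -0.41, adjusted p = 0.000515). Il6st, the gp130 coreceptor gene, rose to 138 CPM in both Pml-/- libraries, against 112 and 116 CPM in wild-type cells (log2 difference 0.28, adjusted p = 0.00382). Stat3 was at 131 and 126 CPM in Pml-/- cells and 115 and 127 CPM in wild-type cells (adjusted p = 0.442), and Lifr at 84.1 and 87.1 CPM in Pml-/- cells and 82.9 and 95.8 CPM in wild-type cells (adjusted p = 0.689).

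Among 16 naive pluripotency factors 2 rose and 2 fell, with a median log2 difference of 0.047. The number called higher was 4 without Pml-/- library 1 and 0 without Pml-/- library 2. Zfp42, also known as Rex1, fell 1.20-fold and Klf5 1.27-fold (limma, adjusted p = 0.00251 and 0.00437). Nr5a2 and Tfcp2l1 rose 1.23-fold and 1.22-fold (adjusted p = 0.00682 and 0.0241). The call of Nr5a2 ended without Pml-/- library 2 (adjusted p = 0.0594). That of Tfcp2l1 ended without Pml-/- library 1, Pml-/- library 2 or wild-type library 1 (highest adjusted p = 0.319).

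Of 11 genes of UHRF1 and DNA methylation, 5 fell and 0 rose, with a median log2 difference of -0.082. Without wild-type library 1, or when low genes were kept in, none of these 5 calls was left, and without Pml-/- library 2, 2 were. Uhrf1 RNA was at 580 and 565 CPM in Pml-/- cells and 648 and 657 CPM in wild-type cells (log2 difference -0.19, SE 0.041, limma adjusted p = 0.0143). That call was lost when one or the other wild-type library was left out, with adjusted p up to 0.0741. UHRF1 protein, the known target of PRAMEL7, was not measured. Of 11 tested genes of CUL2 ligases, 0 passed in limma or by edgeR on recovered reads, and 1, Fem1b, had an unadjusted p under 0.05 and was called higher without wild-type library 2 (adjusted p = 0.0434). Cul2 was at 181 and 190 CPM in Pml-/- cells and 191 and 189 CPM in wild-type cells (log2 difference -0.039, limma adjusted p = 0.713), and Fem1b, the substrate receptor gene with the most reads of the list, had a log2 difference of 0.14 (adjusted p = 0.0872).

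Germline genes that DNA methylation silences gave 3 lower and 0 higher of 12 tested, with a median log2 difference of -0.15. Tuba3a had the smallest adjusted p of this list (log2 difference -0.89, limma adjusted p = 1.17e-07). Ddx4, Sycp1, Sycp3 and Mael were above 0 (log2 differences 0.20, 0.21, 0.12 and 0.11) and did not pass. The other tested genes of the list were below 0. The call of Dazl, an RNA-binding protein gene of germ cells, was lost without Pml-/- library 1 or wild-type library 1 (adjusted p up to 0.107). Hormad1, a meiotic chromosome axis gene, fell to 6.82 and 8.12 CPM in Pml-/- cells, against 19.8 and 17.0 CPM in wild-type cells (log2 difference -1.20, limma adjusted p = 1.47e-05). Formative epiblast genes gave 5 lower and 0 higher of 9 tested, with a median of -0.24. Of these 9 genes, Tcf7l1 was not called in the full comparison, with a log2 difference of 0.12, and stood at 0.23 without Pml-/- library 1. The most changed was Etv4 (-1.31, limma adjusted p = 1.15e-05), and leaving out Pml-/- library 1 or Pml-/- library 2 kept 2 of these 5 calls; 1 was kept when genes of low value entered the fit. Genes of the 2-cell-like state, in which several PRAME family copies are also known to be active, gave 10 higher and 0 lower of 13 tested, with a median of 0.72; 4 of these 10 calls were left without Pml-/- library 2 and 3 when low genes were kept in, and many of these genes are near-identical copies. Their summed level was 67.5 and 70.6 CPM in Pml-/- cells and 36.5 and 35.3 CPM in wild-type cells, so these genes and the Pramel6 and Pramel7 pair lay on opposite sides of 0. The part of any such cell state in the Pramel6 and Pramel7 differences was not tested.

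**Figure D5:**
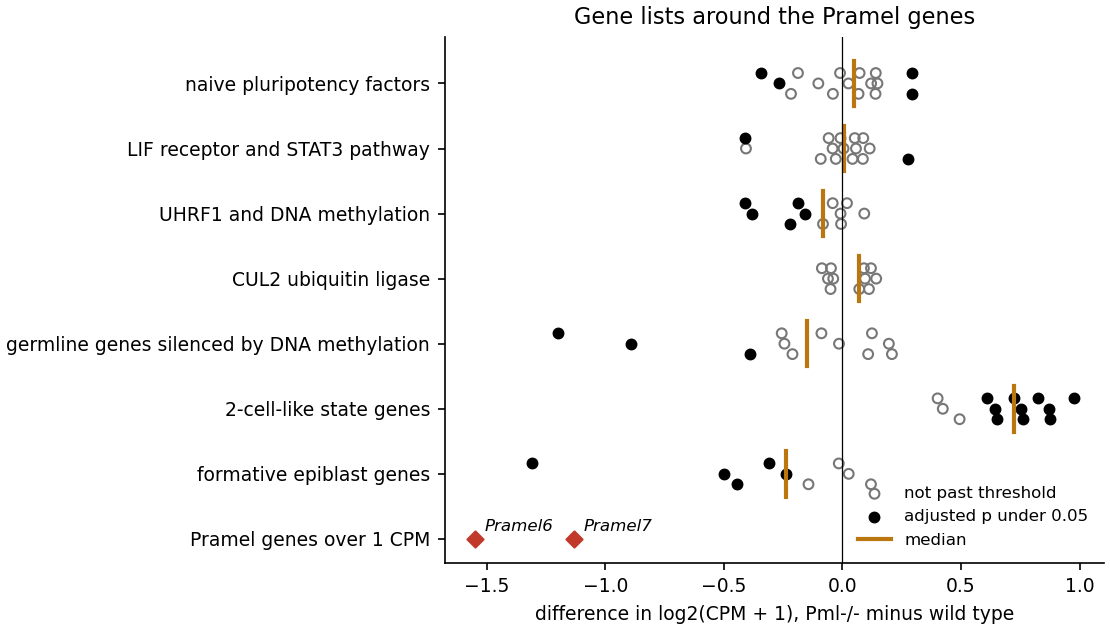
Difference in log2(CPM + 1), Pml-/- minus wild type, of each tested gene of 7 lists; filled points passed an adjusted p of 0.05 in limma, open points did not, ochre bars are list medians and points are spread vertically for visibility. Pramel6 and Pramel7 (red diamonds, with no test) were chosen on this contrast and lie at -1.55 and -1.13. That is to the left of every gene of the naive factor, LIF pathway, DNA methylation and CUL2 ligase lists. Etv4 of the formative list (-1.31) and Hormad1 of the germline list (-1.20) lie to the left of Pramel7.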

How the data were processed

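RNA was measured in 4 libraries. Per the labels, genotype and replicate number define the groups; the entry of wild-type library 2 names a DNA library kit alone, and the sources used here do not give whether its preparation differed. The submitters' processing notes name cutadapt, TopHat, edgeR and the build mm10. The sources used here give no counter, annotation or strand setting. The authors deposited CPM per library, their log2 fold change with a mean log2 CPM, and p-values with false discovery rates.

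Dividing the deposited CPM by the value of 1 read gave whole reads for 100% of values (tolerance 0.001 reads). limma 3.58.1 (R 4.3.3, trend, genotype only) was fitted to log2(CPM + 1) for the 12710 genes averaging 1 CPM or more, with Benjamini-Hochberg adjustment; 687 passed 0.05, 248 higher and 439 lower in Pml-/- cells. edgeR 4.0.16 on recovered reads called 620. The fit was tested on simulated data. Promoters were aligned with Biopython 1.88 (match 1, mismatch -1, gap open -2, extend -0.5).

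The members and gene lists were chosen with earlier results of these data known. Named genes followed a rule: family genes over 1 CPM, called list members by adjusted p, nearest tested neighbours, and the 5 profiles closest to Pramel7; from the longer lists the text gives only some. Of the table's symbols, 23204 matched RefSeq directly, 1096 by a synonym and 121 did not. Levels of different genes were not compared, since gene lengths were not used here. Intervals cover counting error only.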

Additional observations from a re-analysis of the deposited data

How the results depend on the processing

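The groups of Pramel6 and Pramel7 lie well apart, and the genes were chosen on this contrast, so the sign of their differences was bound to stay. The differences under the alternatives are given as a description. With a pseudocount of 0.25 CPM they were -1.86 and -1.33, and by edgeR on recovered reads -1.99 and -1.41; a smaller offset lessens the shrinkage of low genes. Leaving out each library in turn, which assumes that the lone library left varies like the other genotype, gave -1.64 to -1.46 for Pramel6 and -1.16 to -1.11 for Pramel7. The number of all genes called (687) fell to 298 when low genes were kept in and ranged from 367 (without Pml-/- library 2) to 869 (without wild-type library 2), with 439 without wild-type library 1. Other PRAME family genes called (2 of 8) numbered 1 when low genes were kept in, where Pramef17 was lost (adjusted p = 0.0597), and 1 to 3 without 1 library. With the replicate number as a block, 1198 genes and 4 of the 8 family genes were called; same-numbered libraries share only a number, and their deviations correlated at r = 0.12 across 12710 genes. Tnks1bp1 changed sign without Pml-/- library 1 (-0.049; range over left-out libraries -0.049 to 0.074) and Lifr without wild-type library 2 (0.045; range -0.16 to 0.045), neither called. With the block 1 CUL2 ligase gene was called higher and 2 LIF pathway genes lower. Of 35 named genes called, 15 kept their call under every alternative. Both counts include Pramel6 and Pramel7, which were chosen on this contrast, so nothing is read from their calls. Depth limits the low genes: Pramel4 and Pramel5 could not be compared.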

Other observations

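Among PRAME family genes with reads but a mean under 1 CPM none was tested. Of 10 such genes outside the 4 Pramel genes, 5 had both Pml-/- libraries above both wild-type libraries, 0 had both below, and 5 overlapped. Over all genes with reads under that filter 14.8% had both Pml-/- libraries above and 15.1% both below. B020004J07Rik, named Pramel17 in RefSeq, had 30 and 43 reads in Pml-/- cells, against 7 and 13 reads in wild-type cells. A430089I19Rik, named Pramel39, had 20 and 22 reads in Pml-/- cells, against 4 and 6 reads in wild-type cells. Pramef6 had 21 and 17 reads in Pml-/- cells, against 7 and 11 reads in wild-type cells, and Gm13078 had 23 and 28 reads against 13 and 15. These genes were picked out after their values were seen, and copies of the family share sequence, so single copies are uncertain.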
